A study of Drosophila melanogaster with 8 samples.

Results

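The dpr, DIP and beat genes and side encode cell surface and secreted proteins of the immunoglobulin superfamily. They were taken by name from the deposited expression table: genes called dpr with a number (21 genes), DIP with a Greek letter (9 genes) or beat with a Roman numeral (14 genes), plus side, which gave 45 of 17321 genes. Their RNA was measured in Drosophila melanogaster embryos mutant for esc and in embryos of OrgR, the wild-type strain of the study. The mutants lacked esc from the mother as well as in the zygote, and the labels name no allele. The esc gene (extra sex combs) encodes part of PRC2, a Polycomb complex that places a repressive methyl mark on histone H3. No treatment was given to either genotype. Each genotype had 4 libraries, numbered 1-1, 1-2, 2-1 and 2-2, which are given in that order throughout. Every library came from at least 200 whole embryos of stages 14 and 15, so a value averages over tissues and over many animals. In such bulk samples, fewer cells of a type and less RNA per cell cannot be told apart, and the genotype cannot be told apart from other differences between the mutant stock and OrgR.

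In the fly nervous system, each Dpr protein binds one or a few DIPs (Dpr-interacting proteins), and growing neurons display particular combinations of them. Matching Dpr and DIP pairs on neighbouring cells help axons to find partners, form synapses and survive. Beat proteins pair in a similar way with proteins of the Side family. The founding pair is known from motor axons: beat-Ia (beaten path) is made by motor neurons and lets their axons leave the main nerve bundle, and side (sidestep) is displayed on the cells along which these axons travel.

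The values are RPKM, read numbers scaled to gene length and library size, which the authors deposited on a linear scale. Relative to the deepest library, depth was 84.4% to 100% in esc and 86.0% to 98.3% in OrgR. Libraries of a genotype with the same first number are called a set here, and the 2 sets of each genotype were the units of the test. Means are given with the SD of the set means (n = 2 sets each). The level of esc itself was 3.59, 3.56, 4.40 and 3.66 RPKM in the esc libraries, against 10.7, 12.4, 11.9 and 11.7 RPKM in the OrgR libraries, and it fell by 1.403 on the log2 scale. The neuron marker elav, the glial marker repo and the neural stem cell marker dpn were detected in every library, at 12.4 RPKM or more for elav, 16.8 RPKM or more for repo and 15.1 RPKM or more for dpn.

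Most of these genes were weakly expressed. In esc embryos, 14 of the 45 had a mean under 1 RPKM and the median of the 45 means was 1.90 RPKM, against 23 genes under 1 RPKM and a median of 0.933 RPKM in OrgR embryos. The highest level was that of dpr7, with 45.1 ± 5.39 RPKM in esc and 39.3 ± 4.39 RPKM in OrgR. The lowest was 0.210 ± 0.026 RPKM in esc, for DIP-alpha, and 0.0585 ± 0.0050 RPKM in OrgR, for dpr15. None of the 45 genes sat at the floor of the table, 0.001 RPKM, in any library.

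Of the 45 genes, 36 averaged 0.5 RPKM or more and were tested. Changes are differences of log2(RPKM + 1), esc minus OrgR, with the standard error (SE) of the fit, and a gene is said to have risen or fallen where its limma adjusted p over all 10547 tested genes was under 0.05. By this rule 17 genes rose and 3 fell, and 16 did not pass. Among all tested genes, 20.9% rose and 31.6% fell. The median change of the 36 was 0.45, against -0.18 over all tested genes. Rises were found in the dpr family (12 of 18 tested) and the beat family (5 of 12 tested), of which quantile normalization left 3 and 2, whereas none of the 5 DIP genes tested with limma passed, 1 of them, DIP-gamma, having an unadjusted p under 0.05 (0.028). The change of side did not pass either. Leaving out 1 library at a time left 14 to 17 rises, and 11 of the 17 kept their call each time. The other 6 lost it without some library. Of these, dpr1, dpr9, beat-Ib and beat-IIIa missed the threshold, as did the fall of dpr19. Without some esc library, dpr2 and dpr6 averaged under 0.5 RPKM and were not tested. Both passed in each of these fits that tested them. With a whole set left out, so that 1 genotype had a single set that was assumed to vary like the other genotype, there were 9 rises and 1 fall without OrgR set 1, and 5 rises and no fall without OrgR set 2. Without esc set 1 there were 10 rises, and without esc set 2 there were 13, with no fall in either case.

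**Figure D1:**
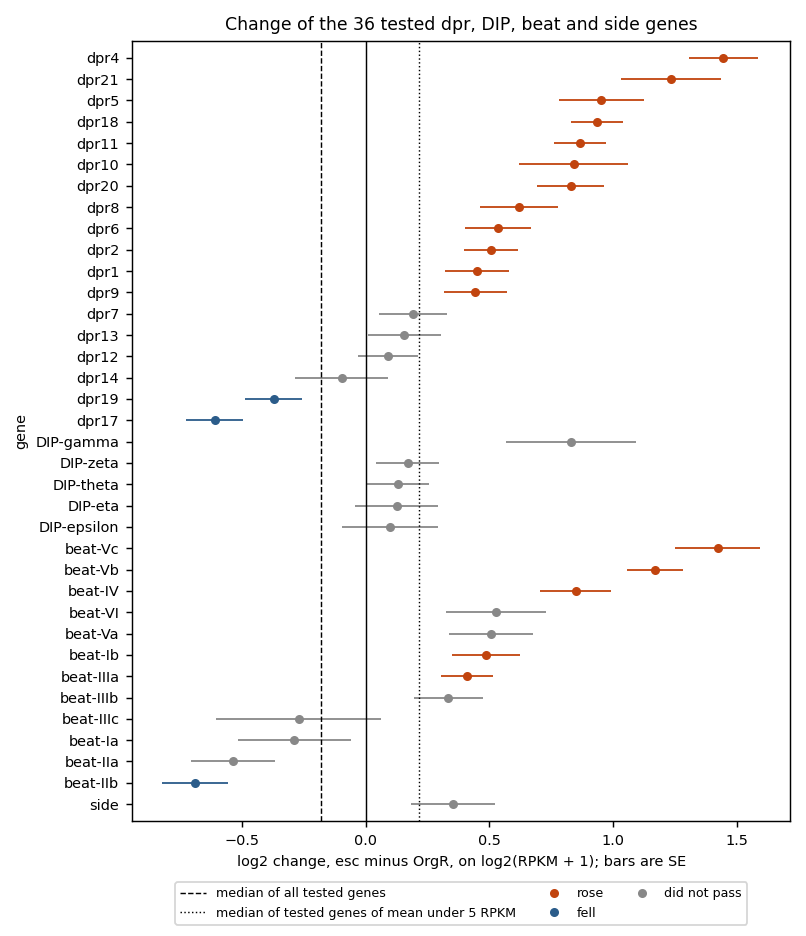
Change of each of the 36 tested genes by family, as esc minus OrgR on log2(RPKM + 1), with its standard error as a bar; the dashed line is the median of all tested genes and the dotted line that of tested genes with a mean under 5 RPKM. Rises lie among the dpr and beat genes, led by dpr4 at 1.45 and beat-Vc at 1.43, and the lowest point is beat-IIb at -0.69.

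The other 9 genes lay below the level filter and carry no call: dpr3, dpr15, dpr16, DIP-alpha, DIP-beta, DIP-delta, DIP-iota, beat-Ic and beat-VII. The genes nearest the limit were DIP-beta (mean 0.432 RPKM), DIP-delta (0.432 RPKM) and dpr16 (0.440 RPKM) on the lower side, and dpr2 (0.501 RPKM), dpr6 (0.565 RPKM) and beat-IIIa (0.576 RPKM) on the upper side. For 5 tested genes, dpr2, dpr6, dpr20, beat-IIIa and beat-IIIb, the OrgR mean was under 0.5 RPKM. They entered the test through their esc values, and 4 of them, all but beat-IIIb, are among the 17 rises. No gene entered through its OrgR values in this way. Counted over all 45 genes without a filter, all 4 esc libraries lay above all 4 OrgR libraries for 24 genes and below them for 4. Of the 36 tested members, 21 lay wholly above and 4 wholly below. Among all tested genes the esc libraries lay wholly above for 26.2% and wholly below for 45.3%.

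Among the 12 dpr genes that rose, the strongest was dpr4. Its level was 3.71, 4.72, 4.998 and 5.29 RPKM in esc libraries, against 1.07, 0.889, 1.18 and 1.16 RPKM in OrgR libraries. The lowest esc library was thus above the highest OrgR library by a wide margin, and the ratio of the means was 4.36. The log2 change was 1.45 ± 0.14 (SE, limma adjusted p = 0.0039). An antisense RNA covers 15.7% of the exon bases of dpr4, and since the libraries were unstranded its reads cannot be told apart from those of dpr4.

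The gene dpr21 followed, with 2.12, 2.19, 3.16 and 3.67 RPKM in esc and 0.782, 0.614, 0.351 and 0.622 RPKM in OrgR. Its esc sets differed, set 2 being higher, yet both stood well above OrgR (log2 change 1.23 ± 0.20, limma adjusted p = 0.011). The neighbour of dpr4 on the chromosome, dpr5, had 3.90, 3.70, 4.70 and 4.86 RPKM in esc against 2.53, 1.601, 1.498 and 1.39 RPKM in OrgR. All esc libraries were again above all OrgR libraries (log2 change 0.95 ± 0.17, limma adjusted p = 0.014). The most even of the rises was that of dpr18. It stood at 2.63, 2.64, 2.67 and 2.87 RPKM in esc and at 0.946, 0.941, 0.883 and 0.962 RPKM in OrgR, a ratio of means of 2.89. Its log2 change was 0.94 ± 0.10 (limma adjusted p = 0.0053).

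The partner genes of well-studied DIPs were followed in each library whatever their call. The gene dpr11, which marks some R7 photoreceptors and whose protein binds DIP-gamma, had 1.88, 2.09, 1.83 and 2.08 RPKM in esc against 0.738, 0.608, 0.642 and 0.532 RPKM in OrgR. This was a rise of 0.87 ± 0.11 on the log2 scale (limma adjusted p = 0.0063), with no library near the other genotype. The muscle surface gene dpr10, which acts with DIP-alpha where motor axons meet muscle, had 3.58, 3.41, 2.51 and 2.33 RPKM in esc against 0.795, 0.966, 1.44 and 1.66 RPKM in OrgR. Set 1 was the higher set in esc and set 2 in OrgR, so the gap was wide or narrow according to the sets compared (log2 change 0.84 ± 0.22, limma adjusted p = 0.033). Its relative dpr6, also a DIP-alpha partner, was weakly expressed, with 0.991, 1.05, 0.604 and 0.775 RPKM in esc and 0.193, 0.357, 0.323 and 0.228 RPKM in OrgR. The esc libraries were all higher (log2 change 0.54 ± 0.13, limma adjusted p = 0.029). The partner of DIP-delta, dpr12, which takes part in the regrowth of mushroom body axons, had 2.23, 1.78, 1.77 and 1.82 RPKM in esc against 1.37, 1.78, 1.72 and 2.07 RPKM in OrgR. Here the genotypes overlapped and no call was made (log2 change 0.09 ± 0.12, limma adjusted p = 0.56).

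The other 5 dpr rises were those of dpr1, dpr2, dpr8, dpr9 and dpr20, and they had ratios of means from 1.51 for dpr1 to 3.38 for dpr20. The OrgR means of dpr2 (0.236 RPKM) and dpr20 (0.4955 RPKM) were under the level filter, so both entered the test through their esc values. dpr1, the founding member, is named for the defective proboscis extension response of its mutant to salt. Its mean was 3.87 ± 0.55 RPKM in esc and 2.57 ± 0.08 RPKM in OrgR.

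Some better expressed dpr genes went the other way. dpr17 had 3.84, 3.93, 4.56 and 4.01 RPKM in esc against 6.64, 6.22, 7.11 and 7.13 RPKM in OrgR, without overlap. It fell by 0.61 ± 0.12 on the log2 scale (limma adjusted p = 0.016). dpr19 had 14.0, 14.4, 12.9 and 13.4 RPKM in esc against 17.1, 16.6, 18.8 and 19.5 RPKM in OrgR, and it fell by 0.37 ± 0.11 (limma adjusted p = 0.0497). This last value lies just under the threshold. The most abundant gene, dpr7, on the small chromosome 4, did not pass (log2 change 0.19 ± 0.14, limma adjusted p = 0.28), and neither did dpr13 and dpr14.

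**Figure D2:**
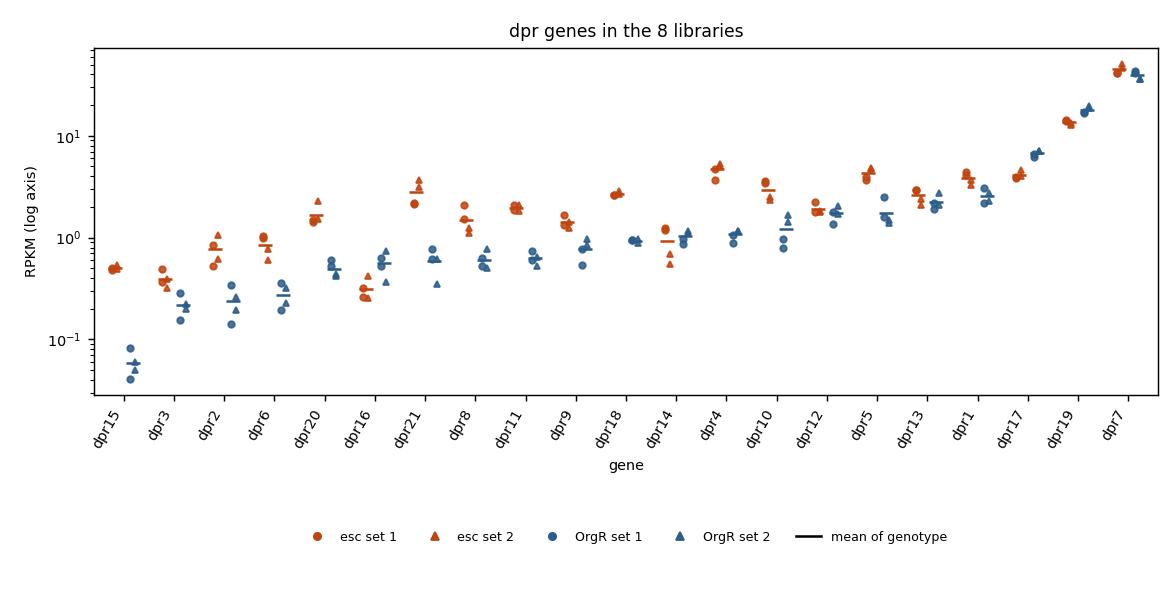
RPKM of the 21 dpr genes in each library on a log axis, esc points left of OrgR points, with circles for set 1, triangles for set 2 and a dash for the mean of a genotype. dpr4, dpr21 and dpr15 show gaps between the genotypes with esc above, dpr17 and dpr19 lie lower in esc, and dpr7 stands highest with overlapping libraries.

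In both genotypes dpr7 and dpr19 supplied most of the summed dpr level. The sum was 95.0 to 106 RPKM in esc libraries and 78.8 to 83.4 RPKM in OrgR libraries. Without these 2 genes it was 38.7 to 41.4 RPKM in esc libraries and 23.0 to 25.2 RPKM in OrgR libraries.

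Among the untested dpr genes, dpr15 had the largest ratio of all 45 genes and is named here after its values were seen. It had 0.508, 0.486, 0.489 and 0.541 RPKM in esc against 0.041, 0.083, 0.050 and 0.060 RPKM in OrgR, a ratio of means of 8.65. The 4 esc libraries were close together and far above OrgR, but both levels are low. Without the level filter its limma adjusted p was 0.0041, that of dpr3 was 0.028 in the same direction, and that of dpr16, which was lower in esc, was 0.019. The level of dpr16 was 0.259, 0.321, 0.422 and 0.257 RPKM in esc and 0.632, 0.522, 0.736 and 0.370 RPKM in OrgR, so that 1 library of each genotype overlapped.

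The DIP genes taken by name, which encode receptors for the Dpr proteins, differed from the dpr genes in their calls, although that difference was not tested. All 5 tested DIP genes had a positive change with the deposited values. The DIP-like genes CG31814 and CG45781, outside the naming rule, both rose, as given below. The 9 DIP genes summed to 12.64 to 15.96 RPKM in esc libraries and 10.12 to 12.61 RPKM in OrgR libraries, so the lowest esc library was barely above the highest OrgR library. The nearest to a call was DIP-gamma, the partner of dpr11 in the visual system and a gene of motor neurons. It had 2.09, 2.54, 2.51 and 2.69 RPKM in esc against 1.34, 1.65, 0.430 and 0.599 RPKM in OrgR. All esc libraries were higher, but OrgR set 1 stood far above OrgR set 2 (log2 change 0.83 ± 0.26, limma adjusted p = 0.053). It passed in 9 of the 26 other ways of processing the data, among them median-of-ratios scaling.

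DIP-epsilon was the most abundant DIP gene, with 7.84, 6.63, 5.21 and 5.50 RPKM in esc and 4.67, 5.404, 6.69 and 6.43 RPKM in OrgR. Only esc set 2 against OrgR set 2 had esc lower, with a log2 change of -0.25. The other comparisons of sets had esc higher, by 0.08 to 0.45 (fitted log2 change 0.10 ± 0.19, limma adjusted p = 0.69). DIP-eta had 1.79, 1.22, 1.02 and 0.981 RPKM in esc and 0.971, 0.791, 1.04 and 1.44 RPKM in OrgR. It showed the same pattern, with -0.15 for esc set 2 against OrgR set 2 and 0.09 to 0.41 for the other comparisons. Its log2 change was 0.13 ± 0.17 (limma adjusted p = 0.55). The adjacent gene DIP-theta had 1.24, 1.66, 1.64 and 1.65 RPKM in esc against 1.26, 1.12, 1.61 and 1.33 RPKM in OrgR, and 12.6% of its exon bases are shared with other annotated transcripts. DIP-zeta had 1.19, 1.34, 1.02 and 0.848 RPKM in esc against 0.771, 0.919, 0.770 and 0.980 RPKM in OrgR. Neither of these neared the threshold with the deposited values (limma adjusted p = 0.41 for DIP-theta and 0.31 for DIP-zeta), and the genotypes overlapped for both. After quantile normalization DIP-theta fell (log2 change -0.46, limma adjusted p = 0.040).

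The other 4 DIP genes were too low to test. DIP-alpha, the receptor of particular motor neurons that meets dpr10 on muscle, had 0.171, 0.285, 0.192 and 0.191 RPKM in esc and 0.211, 0.106, 0.285 and 0.506 RPKM in OrgR. DIP-beta had 0.648, 0.495, 0.232 and 0.279 RPKM in esc and 0.292, 0.432, 0.525 and 0.549 RPKM in OrgR. DIP-delta, the receptor for dpr12, had 0.513, 0.525, 0.354 and 0.311 RPKM in esc and 0.273, 0.581, 0.316 and 0.586 RPKM in OrgR. The genotypes overlapped for these 3 genes, and their limma adjusted p without the level filter was 0.61 for DIP-alpha, 0.82 for DIP-beta and 0.94 for DIP-delta. DIP-iota alone separated them, with 0.486, 0.344, 0.460 and 0.420 RPKM in esc and 0.335, 0.279, 0.143 and 0.202 RPKM in OrgR. Its limma adjusted p without the level filter was 0.070.

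**Figure D3:**
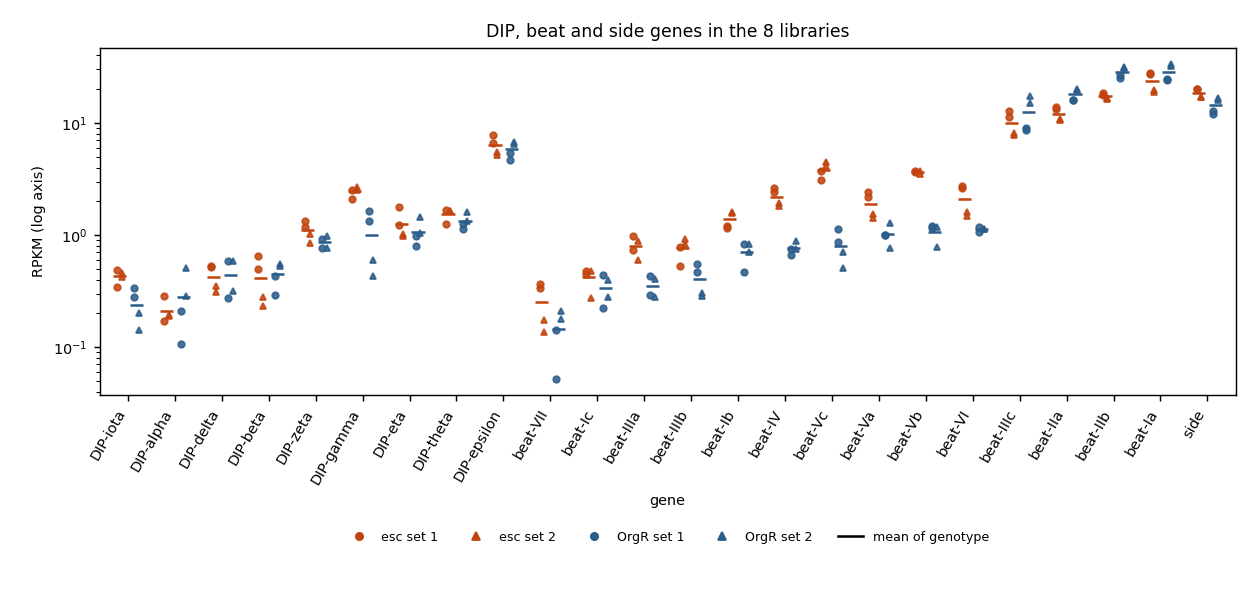
RPKM of the DIP and beat genes and side in each library on a log axis, esc points left of OrgR points, with circles for set 1, triangles for set 2 and a dash for the mean of a genotype. DIP genes overlap between genotypes except DIP-gamma and DIP-iota; beat-IV, beat-Vb and beat-Vc lie higher in esc, and beat-IIa and beat-IIb lower.

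In the beat family, 5 of 12 tested genes rose and 1 fell. The cluster of 3 beat-V genes held the strongest rises. beat-Vc had 3.69, 3.09, 4.48 and 4.09 RPKM in esc against 1.14, 0.863, 0.707 and 0.512 RPKM in OrgR. The ratio of means was 4.76, the largest among the 36 tested members of these families, and the log2 change was 1.43 ± 0.17 (limma adjusted p = 0.0062). beat-Vb was nearly constant in esc, with 3.73, 3.64, 3.52 and 3.72 RPKM, against 1.15, 1.20, 1.17 and 0.778 RPKM in OrgR. It rose by 1.17 ± 0.11 on the log2 scale (limma adjusted p = 0.0040). The third gene, beat-Va, had a mean of 1.88 ± 0.57 RPKM in esc and 1.01 ± 0.02 RPKM in OrgR, with all esc libraries higher, but did not pass (limma adjusted p = 0.061). beat-IV, with 2.40, 2.61, 1.92 and 1.82 RPKM in esc and 0.747, 0.665, 0.750 and 0.886 RPKM in OrgR, rose by 0.85 ± 0.14 (limma adjusted p = 0.012).

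The abundant beat genes did not share these rises. beat-IIb had 17.7, 18.5, 16.6 and 16.3 RPKM in esc against 25.2, 26.6, 31.7 and 31.1 RPKM in OrgR, and it fell by 0.69 ± 0.13 on the log2 scale (limma adjusted p = 0.016). Its neighbour beat-IIa averaged 12.1 ± 1.99 RPKM in esc and 17.97 ± 2.73 RPKM in OrgR, with all esc libraries lower, and missed the threshold (limma adjusted p = 0.054). The motor axon gene beat-Ia had 27.3, 27.7, 19.0 and 19.7 RPKM in esc against 24.8, 24.2, 32.2 and 33.8 RPKM in OrgR. Its direction depended on the sets compared. The log2 change was 0.16 for esc set 1 against OrgR set 1 and -0.26 against OrgR set 2. For esc set 2 it was -0.32 against OrgR set 1 and -0.74 against OrgR set 2. The fitted log2 change was -0.29 ± 0.23 (limma adjusted p = 0.33). The summed beat level overlapped between genotypes, at 70.8 to 91.0 RPKM in esc libraries and 81.7 to 108 RPKM in OrgR libraries.

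The other beat rises were small or uncertain. beat-Ib averaged 1.39 ± 0.30 RPKM in esc and 0.710 ± 0.081 RPKM in OrgR (limma adjusted p = 0.040). beat-IIIa passed as well (limma adjusted p = 0.033), but all of its exon bases also lie within the annotated gene CG34106 on the same strand. CG34106 had 0.440, 0.319, 0.668 and 1.14 RPKM in esc and 0.661, 0.521, 0.235 and 0.520 RPKM in OrgR. Its genotypes overlapped and it did not pass (log2 change 0.13 ± 0.20, limma adjusted p = 0.60). How reads were split between these 2 genes is not given in the sources used here, so the value of beat-IIIa is uncertain. beat-VI, beat-IIIb and beat-IIIc did not pass.

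The gene side had 19.9, 20.1, 16.9 and 17.2 RPKM in esc against 12.1, 12.7, 15.9 and 16.8 RPKM in OrgR. All 4 esc libraries were above all 4 OrgR libraries, narrowly between esc set 2 and OrgR set 2. The log2 change of 0.35 ± 0.17 did not pass (limma adjusted p = 0.15). Of the 7 other genes of the side family, found through their older names, 6 were tested, 4 rose and none fell. Over all tested genes, 20.9% rose and 31.6% fell. The 4 rises averaged under 5 RPKM, where 36.5% of all tested genes rose and 13.0% fell. The largest changes were those of CG12484 (side-VIII), at 0.86 ± 0.12, and of CG12950 (side-VII) and CG42313 (side-II), both at 0.63. CG12484 had 3.37, 3.10, 2.90 and 2.80 RPKM in esc and 1.11, 1.46, 1.09 and 1.24 RPKM in OrgR. The fourth rise was that of CG34114 (side-VI). CG34371 (side-V) went the other way, with 18.2 to 21.6 RPKM in esc libraries and 24.0 to 39.2 RPKM in OrgR libraries. Its log2 change of -0.59 ± 0.23 did not pass (limma adjusted p = 0.092). After quantile normalization none of the 4 rises passed (limma adjusted p = 0.15 for CG12484, 0.48 for CG12950, 0.62 for CG42313 and 0.69 for CG34114).

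Known binding partners were set side by side, with no test of the pairs. For DIP-alpha, the receptor averaged 0.210 RPKM in esc and 0.277 RPKM in OrgR, while both of its partners dpr6 and dpr10 rose with the deposited values. The OrgR mean of dpr6 was 0.28 RPKM, under the level filter, so it entered the test through its esc values. After quantile normalization neither partner passed (limma adjusted p = 0.91 for dpr6 and 0.47 for dpr10). For DIP-gamma, whose own change did not pass, the 4 partners split: dpr11 rose, dpr15 was higher in esc, dpr16 was lower in esc and dpr17 fell. As a result dpr17 exceeded dpr11 in both genotypes but by different amounts, with 4.09 RPKM for dpr17 and 1.97 RPKM for dpr11 in esc, against 6.77 RPKM for dpr17 and 0.630 RPKM for dpr11 in OrgR. For DIP-delta and dpr12, neither partner separated the genotypes.

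The beat and side pairs can be read in the same way. The partner of the beat-V proteins, CG34114 (side-VI), had 1.23, 1.46, 0.990 and 1.03 RPKM in esc against 0.470, 0.361, 0.388 and 0.551 RPKM in OrgR, and rose by 0.59 ± 0.13 (limma adjusted p = 0.021). The OrgR mean of CG34114 was 0.44 RPKM, under the level filter of 0.5 RPKM, so it entered the test through its esc values. With the deposited values, both sides of this pairing had higher levels in esc libraries. After quantile normalization the change was 0.07 for CG34114 (limma adjusted p = 0.69), -0.078 for beat-Va, 0.57 for beat-Vb and 0.84 for beat-Vc. CG14372 (side-IV), the partner of the beat-II proteins, averaged 37.8 RPKM in esc and 41.4 RPKM in OrgR and did not pass (limma adjusted p = 0.70). Antisense RNAs cover 67.5% of its exon bases, so its value is uncertain. CG42313 (side-II), the partner of beat-VI, rose, and beat-VI had a log2 change of 0.53 ± 0.20 that missed the threshold (limma adjusted p = 0.087). For side itself and its partners, only beat-Ib passed the test, with beat-Ia not passing and beat-Ic untested.

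Several of these genes lie in clusters. Within 250 kb there were 15 pairs of member genes, both were tested in 11 of them, and the sign of the change was shared in 8. Pairs within a cluster of 3 reuse the same genes, and 29 of the 36 tested members had a positive change, so this count says nothing particular to neighbours. On dm6 coordinates, dpr5 (chr3R:11499984-11505951, plus strand) and dpr4 (chr3R:11533483-11542949, minus strand) are 27531 bases apart, and both rose. dpr6 (chr3L:9974651-10139360, plus strand) and dpr10 (chr3L:10147454-10186108, minus strand) are 8093 bases apart, and both rose. The beat-V genes lie between beat-Vc (chr3R:12746036-12783216, minus strand) and beat-Vb (chr3R:12916056-12934813, plus strand). In contrast, dpr17 (chr3R:12094876-12111420, plus strand) fell, whereas dpr15 (chr3R:12138833-12158595, minus strand), 27412 bases away, was the gene with the largest ratio of esc to OrgR. The beat-I and beat-III clusters were mixed.

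With the deposited values, the direction of change went with the level of the gene, which quantile normalization did not keep for all genes. A boundary of 5 RPKM, chosen after the values were seen, left 27 tested genes below it, of which 17 rose and none fell, and 9 above it, of which none rose and 3 fell. Because the boundary was chosen in this way, how sharply it split the members carries no weight. Of the 17, dpr2, dpr6, dpr20 and beat-IIIa entered the test through their esc values. All tested genes were split in the same direction. Of those under 5 RPKM, 36.5% rose and 13.0% fell, and of those of at least 5 RPKM, 16.4% rose and 36.9% fell. The median change of the 27 was 0.53, against 0.21 for all tested genes under 5 RPKM, and that of the 9 was -0.29, against -0.26 for all tested genes of at least 5 RPKM. The share of the 9 that fell is thus close to that of all genes at such levels. After median-of-ratios scaling and after centring, the tested genes under 5 RPKM again had medians above that of all tested genes (0.36 against 0.04 and 0.26 against -0.14). After quantile normalization their median was -0.35, below the -0.26 of all tested genes, with 409 rises and 1044 falls among the 2376. Of the 27 members under 5 RPKM, 5 then rose and 2 fell, with a median change of -0.018.

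**Figure D4:**
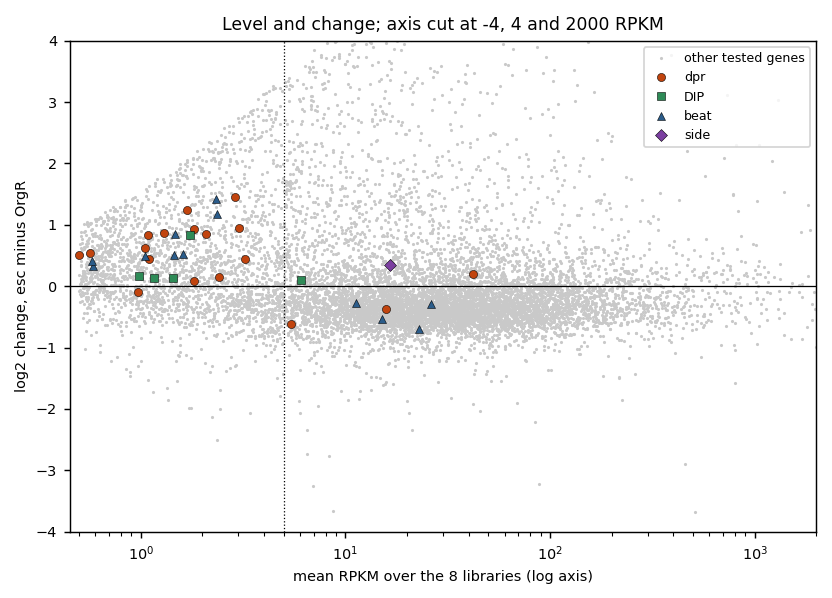
Change against level for all tested genes in grey and the member genes in colour, with the mean RPKM over the 8 libraries on a log axis and the change as esc minus OrgR on log2(RPKM + 1). The rises lie under 5 RPKM, a boundary chosen after the values were seen, and the 3 falls at or above it. With these deposited values the grey cloud leans upwards at low levels and downwards at high levels. Quantile normalization turns this lean round at low levels (median -0.35 under 5 RPKM).

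Other surface genes were counted in the same way, with no test of their difference from the member genes. Of 31 tested immunoglobulin superfamily genes outside the naming rule, 4 rose, CG31814 (DIP-kappa) among them, and 3 fell, with a median change of -0.18. Over all tested genes, 20.9% rose and 31.6% fell. The largest changes in this list were those of bdl (1.70 ± 0.12), nolo (1.47 ± 0.21) and Ama (-1.08 ± 0.09). Of 22 tested genes of other partner-choice systems, 1 rose, Nlg2 (0.97 ± 0.12), and 1 fell, trn (-0.999 ± 0.14). Most tested genes of both lists averaged at least 5 RPKM, whereas 27 of the 36 tested members were below it. At these levels 16.4% and 36.5% of all tested genes rose, so the counts are not matched for level. The DIP-like genes CG31814 (DIP-kappa) and CG45781 (DIP-lambda), which the naming rule leaves out, both rose, by 0.40 ± 0.10 (limma adjusted p = 0.033) for CG31814 and 0.54 ± 0.14 (limma adjusted p = 0.030) for CG45781.

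Some markers of the cells that could carry these RNAs also differed between the genotypes. Their counts stand beside the shares of all tested genes, of which 20.9% rose and 31.6% fell. Of 17 tested neuron markers, Snap25 and Gad1 rose and none fell, with a median change of 0.06 and a summed level of 219 to 323 RPKM in esc libraries and 269 to 377 RPKM in OrgR libraries. Of 8 neuroblast markers, none rose and 5 fell, with sums of 164 to 182 RPKM in esc and 292 to 323 RPKM in OrgR. Of 7 motor neuron markers, 1 rose and 2 fell (sums of 162 to 204 RPKM in esc and 230 to 279 RPKM in OrgR), and of 8 glial markers, 2 rose and 3 fell (439 to 500 RPKM in esc and 550 to 627 RPKM in OrgR). Of 8 muscle markers, 6 rose and none fell (7283 to 7693 RPKM in esc and 1896 to 2715 RPKM in OrgR), and of 8 cuticle markers, 7 rose and none fell (4788 to 8220 RPKM in esc and 411 to 471 RPKM in OrgR). Their part in the changes of the dpr, DIP and beat genes was not tested.

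The sets of a genotype also differed in these genes. For 24 of the 45, set 1 was above set 2 in esc while set 2 was above set 1 in OrgR. Among the tested members this order was found in 19 of 36, against 28.1% of all tested genes. Comparing each esc set with each OrgR set, 27 genes were higher in esc in all 4 comparisons, 5 were lower in all 4 and 13 were mixed. Of the 36 tested members, 23 were higher in all 4 and 4 were lower, against 30.0% and 50.7% of all tested genes. The mixed genes made up 4 of the 21 dpr genes, 6 of the 9 DIP genes and 3 of the 14 beat genes. Whether a set is its own collection of embryos is not said in the labels, and the p-values reflect no more than the spread among sets, part or all of which can be technical.

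The counts depended on how libraries were put on a common scale. RPKM values are shares of a library, and rises made up 39.9% of all genes called with the deposited values, 74.4% after median-of-ratios scaling, 45.9% after centring on the median gene and 30.5% after quantile normalization. Of the member genes, 20 rose and none fell after median-of-ratios scaling, and 18 rose and 2 fell after centring. Quantile normalization left 5 rises, of beat-Vb, beat-Vc, dpr4, dpr18 and dpr21. It gave 6 falls, of beat-IIa, beat-IIb, dpr12, dpr17, dpr19 and DIP-theta. Under it dpr1, dpr2, dpr9, beat-Ib and beat-IIIa, which rose with the deposited values, changed sign, as did CG31814, CG45781 and 4 of the 5 tested DIP genes, all but DIP-gamma. There the median change of the member genes was -0.07, against -0.26 over all tested genes. The median of the member genes was thus 0.63 above that of all tested genes with the deposited values and 0.19 above it after quantile normalization. The rises of dpr4, dpr18, beat-Vb and beat-Vc passed the test in every one of the 27 ways of processing that were run.

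**Figure D5:**
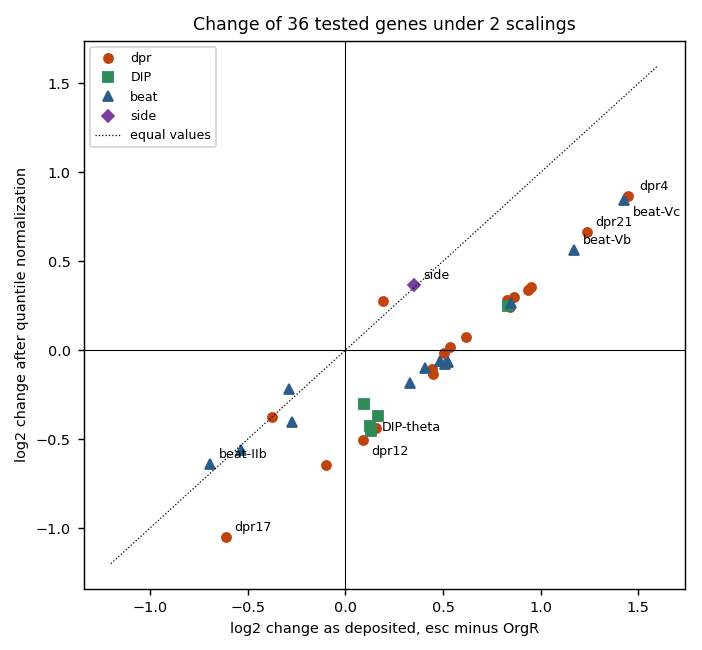
Change of the tested member genes after quantile normalization against the change with the deposited RPKM values, both as esc minus OrgR on the log2 scale. Most points lie below the line of equal values, and dpr4, beat-Vc, beat-Vb and dpr21 remain above 0.5 on both axes.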

How the data were processed

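RNA was measured in 4 esc and 4 OrgR libraries of pooled whole embryos (paired unstranded reads of 150 bp, per the labels' protocols). The authors deposited RPKM values per gene on a linear scale without a filter, per the labels. The submitters' processing notes name dm6 as the genome build. Neither the aligner nor the counter and its gene models are given in the sources used here. These files hold no read counts. Relative depth was obtained from the ratio at which low RPKM values pile up in each of the 28 pairs of libraries; it was 84.4% to 100% of the deepest library.

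The 2 libraries of a set were averaged on log2(RPKM + 1), and the 4 set means were compared with limma 3.58.1 in R 4.3.3 (lmFit, eBayes with a variance trend) for the 10547 genes that averaged 0.5 RPKM or more over all 8 libraries. Two-sided p-values received a Benjamini-Hochberg adjustment across these genes, with 0.05 as the threshold. Residual degrees of freedom were 2, and 4.55 with moderation. The log2(RPKM + 1) scale understates the change of low genes. Simulated data with known changes were used to test the script. Gene symbols were matched to Ensembl release 115, 12554 directly and 3634 through a synonym of 17321 in all; positions are 1-based.

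The members, gene lists and tests were chosen with earlier results of these data known. Values in every library are given for the members past the threshold with the 8 largest rises and the 8 largest falls (3 fell), every DIP gene, side, beat-Ia, dpr6, dpr10, dpr11 and dpr12. From other lists, up to 3 genes past the threshold with the largest change are named, and partner genes are named with their pairs. Alternatives were other pseudocounts, filters, scalings and variance models, each library or set left out, and the set number as a block. Same-numbered sets did not deviate together (correlation -0.34), so crossed set numbers were added as an alternative after seeing the data. No protein or promoter sequences were used here.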

Additional observations from a re-analysis of the deposited data

Results flagged for a closer look

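Within each gene and genotype, the highest or lowest of the 4 libraries was compared with the rest by Dixon's test, which marks about 1 in 20 groups by chance. Of the 90 groups, 5 had a library that stood apart. For dpr20, esc 2-2 was high at 2.27 RPKM, the other esc libraries being between 1.41 and 1.53 RPKM, and for dpr12 esc 1-1 was high at 2.23 RPKM, the others being between 1.77 and 1.82 RPKM. For DIP-theta, esc 1-1 was low at 1.24 RPKM (others 1.64 to 1.66 RPKM), and for beat-Ic esc 2-1 was low at 0.273 RPKM (others 0.451 to 0.479 RPKM). The only such OrgR library was OrgR 2-2 for beat-Vb, low at 0.778 RPKM (others 1.15 to 1.20 RPKM).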

How the results depend on the processing

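The deposited table gives 17 rises and 3 falls among the member genes. Rises numbered 5 after quantile normalization, 8 with the set number as a replicate block and 12 to 22 under the other alternatives that kept all sets. Falls numbered 0 after median-of-ratios scaling, 6 after quantile normalization, 0 with the replicate block and 5 with the set numbers crossed as a block, an alternative added after seeing the data. The set numbers are shared by the titles only: same-numbered sets deviated in opposite directions (correlation -0.34), and the cause was not tested. Leaving out a library or a set gave 5 to 17 rises and 0 to 4 falls, with fewer sets in the fit at the low ends. Over all tested genes, rises ranged from 1314 to 2270 and falls from 773 to 3505 when a library or a set was left out; falls numbered 920 after median-of-ratios scaling, 5050 with the 8 libraries as samples and 899 with the replicate block.

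The median change of the member genes, 0.45, was 0.80 with a pseudocount of 0.1, 0.60 with one of 0.5 and -0.072 after quantile normalization. Under quantile normalization 16 single genes changed sign, to -0.13 for dpr1, -0.018 for dpr2, -0.10 for dpr9, -0.51 for dpr12, -0.44 for dpr13, -0.30 for DIP-epsilon, -0.43 for DIP-eta, -0.46 for DIP-theta, -0.37 for DIP-zeta, -0.061 for beat-Ib, -0.10 for beat-IIIa, -0.18 for beat-IIIb, -0.078 for beat-Va, -0.066 for beat-VI, -0.17 for CG31814 and -0.016 for CG45781. Median-of-ratios scaling, which moved the median of all tested genes from -0.18 to 0.04, turned CG14372 to 0.13 and dpr14 to 0.024. With a library or set left out, the change ranged from -0.39 to 0.16 for CG14372, from -0.087 to 0.28 for DIP-epsilon, from -0.032 to 0.28 for DIP-eta, from -0.67 to 0.13 for beat-IIIc and from -0.32 to 0.13 for dpr14. None of these 5 genes passed the test with the deposited values. The cause of these shifts was not tested.

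Whole read counts are unknown, so no counting error is given for genes under 1 RPKM. With 2 sets per genotype, genes without a call were not shown to be equal.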
